A study of Homo sapiens with 3 samples.

Results

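The genes described here form the cholesterol module of THP-1 macrophages: 32 genes for sterol synthesis, sterol sensing, fatty acid synthesis, and cholesterol efflux. They were taken by gene name from a list of pathway members, without a measured value in the choice of genes. The list itself was chosen with earlier results of these data known. A probe belonged to a member when the gene name in the scanner output was that of the member, which gave 40 of the 58201 probes and 32 of the 22705 genes with a symbol. Where a member had several probes, the probe with the highest mean normalized intensity stood for the gene. The members fall into 18 sterol synthesis enzymes, 5 genes for sterol sensing and transport, 3 genes for fatty acid synthesis, and 6 genes of the kind that the liver X receptors (LXRs) control.

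THP-1 cells come from a human monocytic leukemia, and every array held cells of this line that had been turned into macrophages with PMA at 100 ng/mL for 24 to 36 h and then left overnight in fresh medium. The Ctrl array held macrophages without a further agent, the IMQ array held macrophages given imiquimod (IMQ), which stimulates toll-like receptors, and the IMQ+DMD array held macrophages given DMD before IMQ. DMD is a benzenoid compound from the mushroom Antrodia cinnamomea. The label of the third array writes IMQ plus X, which was read as DMD because no further compound appears in the labels. A time of 4 h stands in every label and no dose of IMQ or DMD does, while the methods of the study give a longer IMQ exposure for its THP-1 experiments in general. There was 1 array per condition, so no replicate error and no p-value exist for any difference below, and the cells are 1 line of leukemic origin rather than macrophages of a donor.

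Cells hold the level of cholesterol within narrow limits. The membrane-bound transcription factors of the SREBP family leave the endoplasmic reticulum with their escort SCAP when sterols are scarce, are cut in the Golgi, and switch on the genes of the mevalonate and cholesterol pathway, whereas INSIG proteins hold them back when sterols are plentiful. LXRs are nuclear receptors that oxysterols activate, and in macrophages they raise the transporters that pass cholesterol to lipoproteins outside the cell.

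Promoter windows of members that stood apart in the measurements are given first. They are the 250 bases before the annotated start site in RefSeq on assembly GRCh38.p14, read 5′ to 3′ on the strand of the gene. MVK and DHCR7 were among the synthesis enzymes with a large difference after IMQ, and LSS was the synthesis enzyme that went the other way in the normalized values. SREBF2 encodes a transcription factor of the SREBP family, and INSIG1 and ABCA1 had the largest positive differences. The windows lie at chr12:109573544-109573793 (plus strand) for MVK, chr11:71448394-71448643 (minus strand) for DHCR7, chr21:46228775-46229024 (minus strand) for LSS, chr22:41832855-41833104 (plus strand) for SREBF2, chr7:155297628-155297877 (plus strand) for INSIG1, and chr9:104928156-104928405 (minus strand) for ABCA1. Capitals mark the letters CCAAT or their reverse complement ATTGG, the core of the box that NF-Y, a partner of SREBPs on sterol promoters, binds, and in SREBF2 also the SREBP element TCACCCCAC.
MVK: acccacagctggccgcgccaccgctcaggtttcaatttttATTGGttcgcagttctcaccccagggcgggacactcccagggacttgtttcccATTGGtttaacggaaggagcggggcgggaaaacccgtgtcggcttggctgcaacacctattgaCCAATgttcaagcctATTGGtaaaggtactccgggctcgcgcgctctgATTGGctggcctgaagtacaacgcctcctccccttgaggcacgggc
DHCR7: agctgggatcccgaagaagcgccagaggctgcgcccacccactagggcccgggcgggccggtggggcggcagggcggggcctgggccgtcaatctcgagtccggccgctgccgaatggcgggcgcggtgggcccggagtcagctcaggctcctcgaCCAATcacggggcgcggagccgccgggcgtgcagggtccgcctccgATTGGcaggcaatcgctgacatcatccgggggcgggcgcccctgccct
LSS: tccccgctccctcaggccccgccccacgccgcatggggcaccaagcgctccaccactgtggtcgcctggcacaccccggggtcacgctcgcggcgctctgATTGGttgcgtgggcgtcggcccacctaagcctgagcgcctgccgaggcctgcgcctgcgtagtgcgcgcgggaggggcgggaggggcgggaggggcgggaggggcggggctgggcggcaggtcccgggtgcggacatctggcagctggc
SREBF2: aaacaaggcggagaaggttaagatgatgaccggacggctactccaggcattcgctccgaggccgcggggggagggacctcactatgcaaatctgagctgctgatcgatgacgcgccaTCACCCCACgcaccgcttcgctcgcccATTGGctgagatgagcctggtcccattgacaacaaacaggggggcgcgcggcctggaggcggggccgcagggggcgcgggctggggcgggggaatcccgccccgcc
INSIG1: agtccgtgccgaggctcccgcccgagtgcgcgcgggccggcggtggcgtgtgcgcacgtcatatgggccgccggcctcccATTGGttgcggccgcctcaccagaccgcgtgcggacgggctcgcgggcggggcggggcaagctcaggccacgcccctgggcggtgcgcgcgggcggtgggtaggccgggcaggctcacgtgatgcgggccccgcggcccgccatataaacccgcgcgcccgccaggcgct
ABCA1: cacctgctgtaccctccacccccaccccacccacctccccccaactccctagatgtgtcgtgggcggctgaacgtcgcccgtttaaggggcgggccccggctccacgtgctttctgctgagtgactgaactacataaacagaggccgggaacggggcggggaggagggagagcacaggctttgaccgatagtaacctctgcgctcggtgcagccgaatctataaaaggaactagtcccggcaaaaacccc

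Of the 32 members, 27 had such a window, and ABCG1, ACAT2, FASN, FDFT1, and SQLE had none in the table used. Both strands were searched for 3 sets of letters. The NF-Y core CCAAT was present before 21 of the 27 members, including 13 of 15 synthesis enzymes, and before 37.0% of the 27305 genes with a window. A gene with several windows was counted where any of them matched. The MVK window held 5 copies and the printed DHCR7 window 2, while the ABCA1 window held 0. Another DHCR7 window, at chr11:71449044-71449293, held 0 copies. The SREBP element TCACNCCAC was found before 1 member, SREBF2, where it began 133 bases before the start site, and before 1.09% of all genes. An exact form of the direct repeat that LXRs bind, GGTCA copies with 5 bases between them, was found before 0 of the 27 members. It was found before 0.0952% of all genes. Only exact letters were counted, so an SREBP or LXR element with a differing letter would be missed. A count of 0 therefore does not show that a promoter lacks such an element. These matches describe letters in a short window and were not measured as binding.

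All values below are log2 of the background-corrected fluorescence of a probe after quantile normalization over the 3 arrays. A difference is the log2 value on 1 array minus that on another, so that 1 log2 unit is a 2-fold difference, and a gene was counted where the difference was at least 2-fold. The SD between repeated spots of 1 probe on an array gave the noise of a difference, between 0.06 and 0.30 log2 units for the members in both comparisons, which covers spots only and not cultures. All 40 member probes were well above background on every array, and 0 carried an outlier mark. Among all probes, the share well above background was 72.0% for Ctrl, 66.6% for IMQ, and 71.9% for IMQ+DMD.

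The labels were checked against genes with known behavior. The inflammatory genes CXCL2, CXCL8, IL1B, and TNF were higher on the IMQ array than on the Ctrl array by 7.46, 6.15, 4.47, and 3.48 log2 units. Between the IMQ+DMD and IMQ arrays they differed by 0.04, 0.09, -0.18, and -0.57 in the same order. The reading of X as DMD was not checked by these genes. Of 10 macrophage markers, 8 had a probe under their symbol, and all 8 were well above background on every array, with differences between IMQ and Ctrl from -1.23 for CD163 to 0.02 for SPI1. Their summed normalized intensity was 637118 for Ctrl, 544728 for IMQ, and 522808 for IMQ+DMD. All 6 promonocyte markers were also above background, with summed intensities of 25699, 25694, and 27716 in the same order. Of the 6, 5 were higher after IMQ, beside 9397 of 19511 genes, with differences from -1.85 for MYB to 0.41 for CTSG and a median of 0.12. Among these rises only 1, that of CTSG, was larger than 2 SD of spot noise. Of 4 keratinocyte markers, 3 were above background on Ctrl and IMQ+DMD and 2 on IMQ, and TP63 was not well above background on any array. Their summed intensities were 18890 for Ctrl, 17592 for IMQ, and 18351 for IMQ+DMD. Nearly all of each sum came from KRT10, with 18797, 17519, and 18235 in the same order. All 4 T cell markers were above background, with sums of 1056, 949, and 1141. Of 3 neutrophil markers with a probe, CSF3R and CXCR2 were above background on every array and CEACAM8 on none, with sums of 1366, 932, and 1037. The part of these shifts in the differences of the sterol genes was not tested.

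IMQ-treated macrophages had lower transcript signals for most of the listed sterol synthesis enzymes. Of the 18 synthesis enzymes, 16 were lower on the IMQ array than on the Ctrl array, 9 of them at least 2-fold, and 0 were at least 2-fold higher. Over all 19511 genes compared, 4.57% were at least 2-fold lower and 4.32% at least 2-fold higher, and over the genes with a mean signal in the range of the members these shares were 4.64% and 3.96%. At 1.5-fold, 14 members were lower and 2 were higher, all of the 14 being synthesis enzymes, beside 12.0% and 10.6% of all genes. The median difference of the enzymes was -0.98 log2 units beside -0.02 for all genes. All 16 lower enzymes were lower under each of the 10 processing alternatives as well. Some of these could not change a member: no floor, both arrays above background, and another probe choice. The reason is that all member probes were well above background and both choice rules picked the same probes. Fewer cells and less of a transcript per cell cannot be told apart in such bulk RNA.

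The 8 listed enzymes of the steps from acetyl-CoA to squalene were all lower after IMQ. The list does not hold every enzyme of these steps. ACAT2, the thiolase that joins acetyl-CoA units, had log2 values of 13.35 on Ctrl, 11.83 on IMQ, and 11.84 on IMQ+DMD, a 2.86-fold lower signal after IMQ. HMGCS1, which makes HMG-CoA from its product, was measured at 10.43 on Ctrl, 9.50 on IMQ, and 9.48 on IMQ+DMD, a difference of -0.94 between IMQ and Ctrl. Both genes were high on the Ctrl array and almost level on the other arrays. MVK, the mevalonate kinase, was at 12.68 on Ctrl, 10.93 on IMQ, and 10.95 on IMQ+DMD, 3.36-fold lower after IMQ at its probe on hg19 chr12:110034941-110035000. PMVK, the next kinase, stood at 12.88, 11.99, and 11.96 on Ctrl, IMQ, and IMQ+DMD, and MVD, the decarboxylase after it, at 9.26, 8.73, and 8.71. These were differences of -0.89 and -0.53 after IMQ, neither of which reached 2-fold.

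The isomerase and the synthases that follow were also highest on the Ctrl array. IDI1, which isomerizes isopentenyl diphosphate, was at 11.28 on Ctrl, 10.43 on IMQ, and 10.45 on IMQ+DMD. FDPS, the farnesyl diphosphate synthase, was at 15.43, 14.61, and 14.58 on these arrays. FDFT1, which joins farnesyl units into squalene, was at 13.68, 12.39, and 12.38. The differences between IMQ and Ctrl were -0.84, -0.82, and -1.29, so FDFT1 alone of these passed 2-fold. Over the 8 enzymes the median difference was -0.91, and the smallest, that of MVD, was larger than 2 SD of its spot noise of 0.08. RefSeq lists 3 pseudogene copies of IDI1 and 10 of FDPS, whose transcripts could share the signal of these probes.

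**Figure D1:**
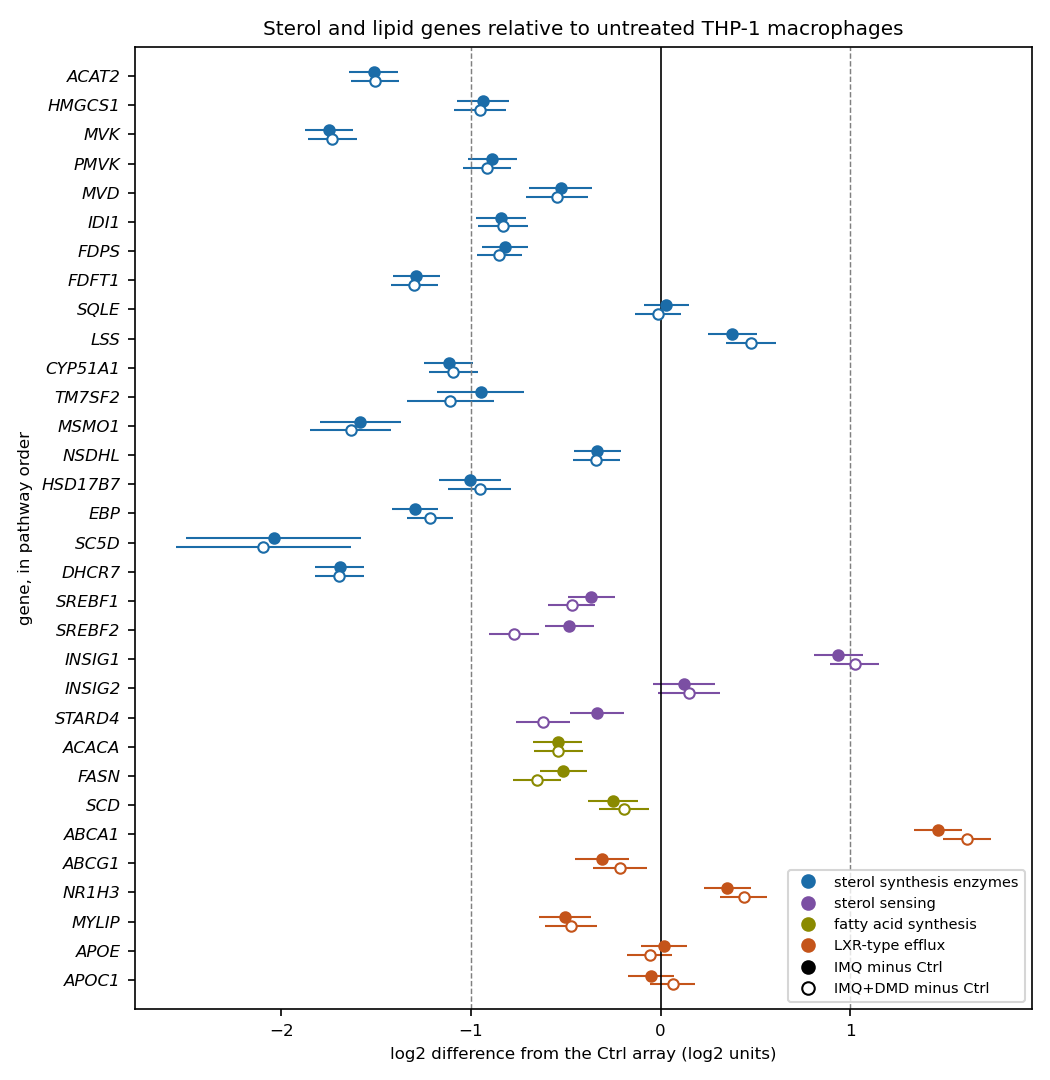
The horizontal axis gives the log2 difference from the Ctrl array for each of the 32 members in pathway order, with filled points for IMQ, open points for IMQ+DMD, and bars of 2 SD of spot noise on either side. The open points lie close to the filled points, most synthesis enzymes lie left of 0, and INSIG1 and ABCA1 lie to the right near or beyond the dashed line at 2-fold.

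From squalene on, 8 of the 10 enzymes were lower after IMQ, and 6 of them at least 2-fold. The exceptions were the first 2 in the order of the pathway. SQLE, the squalene epoxidase, was at 14.92 on Ctrl, 14.95 on IMQ, and 14.90 on IMQ+DMD, a difference of 0.03 after IMQ that was smaller than the spot noise of 0.06 and became -0.29 without normalization and -0.41 with spike-in scaling. LSS, which closes the ring to lanosterol, was at 11.34, 11.72, and 11.82, a difference of 0.38 after IMQ that became -0.12 with spike-in scaling. The second LSS probe, for another transcript, was at 7.95 on Ctrl, 8.78 on IMQ, and 8.83 on IMQ+DMD, a difference of 0.83. The 2 LSS probes lie at hg19 chr21:47609299-47609358 and chr21:47608567-47608626, and both were lowest on the Ctrl array.

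The enzymes that trim lanosterol were lower again. CYP51A1, the lanosterol demethylase, had values of 12.58 on Ctrl, 11.46 on IMQ, and 11.49 on IMQ+DMD. TM7SF2, a sterol reductase, had 8.73, 7.78, and 7.62, and MSMO1, the methylsterol oxidase, had 9.47, 7.89, and 7.84. The differences between IMQ and Ctrl were -1.12, -0.95, and -1.58, and TM7SF2 missed 2-fold narrowly. NSDHL, the sterol dehydrogenase of the same step, had the smallest difference among the lower enzymes, with 12.82 on Ctrl and 12.48 on both IMQ and IMQ+DMD. CYP51A1 has 3 pseudogene copies in RefSeq.

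HSD17B7, the keto reductase of demethylation, had 4 probes. The probe that stood for it was at 9.31 on Ctrl, 8.31 on IMQ, and 8.36 on IMQ+DMD, a 2.01-fold lower signal after IMQ, and the other probes differed by -0.86, -0.39, and -0.49. All 4 probes were thus lower after IMQ, but the count of HSD17B7 as 2-fold lower depended on the probe, and RefSeq lists 2 pseudogene copies. The 0.39 difference belonged to a dim probe with a spot noise of 0.27.

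The last steps to cholesterol included SC5D and DHCR7, which were among the enzymes with large differences after IMQ. EBP, a sterol isomerase, was at 14.59 on Ctrl, 13.30 on IMQ, and 13.38 on IMQ+DMD. SC5D, a sterol desaturase, was at 7.87, 5.83, and 5.78, a 4.12-fold lower signal after IMQ from a dim probe at hg19 chr11:121183280-121183339 with a spot noise of 0.23. With normexp background correction the SC5D difference shrank from -2.04 to -1.31, and MVK and DHCR7 were then further from 0 at -1.72 and -1.63. DHCR7, which reduces 7-dehydrocholesterol to cholesterol, was at 12.75, 11.06, and 11.06, a 3.23-fold lower signal from a bright probe at hg19 chr11:71145514-71145573. EBP was 2.46-fold lower, and all 3 were about as low on the IMQ+DMD array as on the IMQ array. Over the 10 enzymes from squalene on, the median difference was -1.06.

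**Figure D2:**
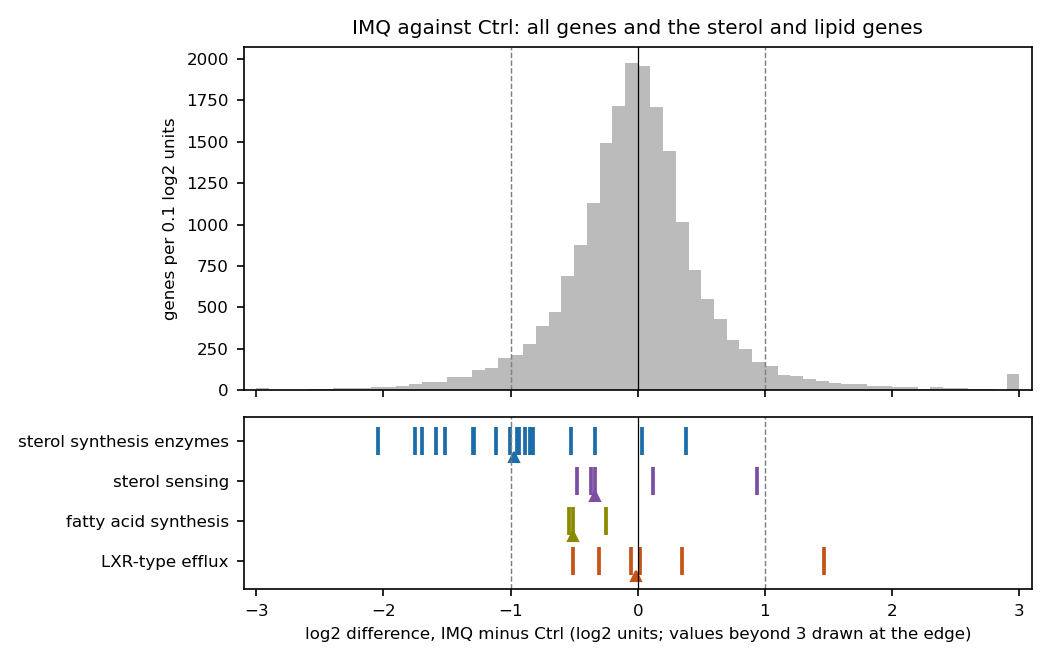
The upper panel counts all 19511 genes with a symbol by their log2 difference between IMQ and Ctrl in steps of 0.1, and the lower panel shows each member as a line in its list with a triangle at the median. All genes center on -0.02, whereas the synthesis enzymes center on -0.98 with LSS and SQLE as the 2 lines to the right of 0. Both fall to the left of 0 with spike-in scaling, where the median of all genes is -0.61.

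The sterol sensing genes did not move as a block. INSIG1, which retains SCAP and SREBP in the endoplasmic reticulum and is itself an SREBP target, was at 11.95 on Ctrl, 12.88 on IMQ, and 12.97 on IMQ+DMD. Its difference after IMQ was 0.94, or 1.91-fold higher, at hg19 chr7:155101843-155101902, and it was between 0.48 and 1.04 over all settings. The value was therefore opposite in sign to those of 16 synthesis enzymes. INSIG2, the related retention protein, was at 8.90, 9.02, and 9.05, and its second probe was at 8.18, 8.32, and 8.10. The INSIG2 differences of 0.12 and 0.15 after IMQ were smaller than 2 SD of spot noise, and that of the first probe became -0.44 with spike-in scaling.

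SREBF2, the SREBP gene that mainly serves cholesterol synthesis, was at 11.38 on Ctrl, 10.90 on IMQ, and 10.61 on IMQ+DMD, lower by 0.48 after IMQ. SREBF1, which mainly serves fatty acid synthesis, was at 12.74, 12.37, and 12.27 with the probe that stood for it and at 9.12, 9.24, and 9.36 with a neighboring probe. The 2 SREBF1 probes, at hg19 chr17:17715419-17715478 and chr17:17715304-17715363, thus disagreed in sign, with -0.37 and 0.12 after IMQ, and no direction is given for SREBF1. STARD4, a cytosolic sterol carrier, was at 9.83, 9.49, and 9.20, a difference of -0.34. The median of the 5 sensing genes was -0.34, and 0 of them differed by 2-fold, although INSIG1 did so with 75th percentile scaling at 1.04 and SREBF2 was at least 2-fold lower with spike-in scaling.

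The 3 fatty acid genes were lower after IMQ by less than 2-fold, although 1 of them passed 2-fold with spike-in scaling. ACACA, the acetyl-CoA carboxylase that commits carbon to fatty acids, was at 12.16 on Ctrl, 11.62 on IMQ, and 11.63 on IMQ+DMD, with a second probe that differed by -0.57 beside -0.54 for the first. FASN, the fatty acid synthase, was at 12.98, 12.47, and 12.33. SCD, the stearoyl-CoA desaturase, was at 10.93, 10.68, and 10.74, which was the smallest difference of the 3 at -0.25. The median was -0.51, and SCD has 1 pseudogene copy.

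The efflux genes held the largest positive difference of the module and no common direction. ABCA1, the transporter that hands cholesterol to lipid-poor apolipoproteins, was at 11.50 on Ctrl, 12.97 on IMQ, and 13.12 on IMQ+DMD, 2.76-fold higher after IMQ at hg19 chr9:107543704-107543763. A second ABCA1 probe at hg19 chr9:107624012-107624071 was at 8.13, 9.46, and 9.81, or 2.52-fold higher after IMQ. Both probes were lowest on the Ctrl array and highest on the IMQ+DMD array. ABCA1 was the single member at least 2-fold higher, and its difference was 0.97 with spike-in scaling, which lies just under 2-fold.

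The other efflux genes differed by less than 2-fold. ABCG1, the transporter that loads mature lipoproteins, was at 9.51 on Ctrl, 9.20 on IMQ, and 9.30 on IMQ+DMD, a difference of -0.31 that was opposite in sign to that of ABCA1. NR1H3, which encodes LXRα, was at 12.39, 12.74, and 12.83, a difference of 0.35 that became -0.11 with spike-in scaling. MYLIP, a ubiquitin ligase that LXRs induce, was at 10.00, 9.50, and 9.53, a difference of -0.51 that reached -1.07, past 2-fold, with spike-in scaling. ABCA1 and MYLIP thus lay at opposite ends of the efflux list.

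APOE, the apolipoprotein that macrophages secrete, was at 17.12 on Ctrl, 17.14 on IMQ, and 17.06 on IMQ+DMD. APOC1, its neighbor in the genome, was at 14.70, 14.65, and 14.77 and has 1 pseudogene copy. Both differed between IMQ and Ctrl by less than their spot noise of 0.06, and the sign of each changed with the scaling. The median of the 6 efflux genes was -0.02, the same as that of all genes, and -0.05 without ABCA1. It lay 0.96 log2 units above the median of the synthesis enzymes.

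**Figure D3:**
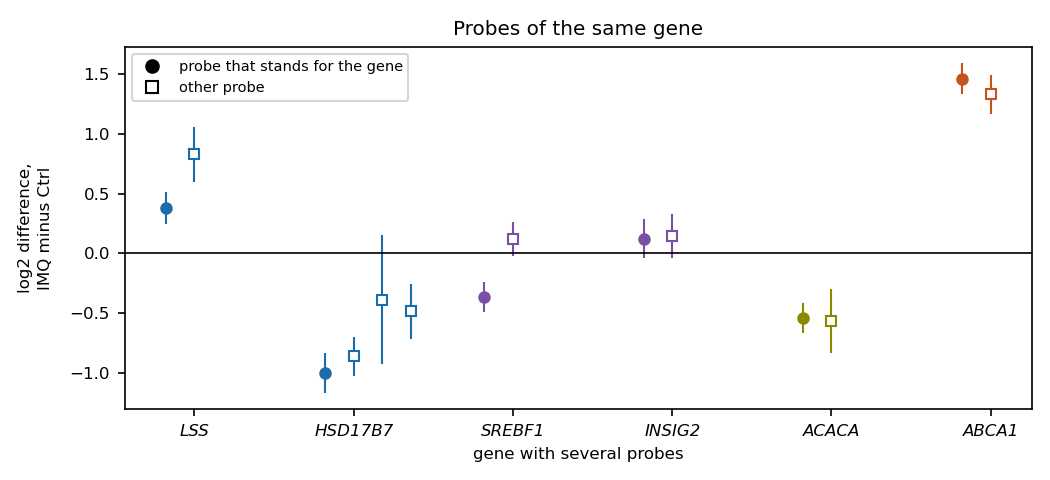
The vertical axis gives the log2 difference between IMQ and Ctrl for every probe of the 6 members with several probes, with filled circles for the probe that stood for the gene, open squares for the others, and bars of 2 SD of spot noise. Both ABCA1 probes lie above 1, all 4 HSD17B7 probes lie below 0, and the SREBF1 probes lie on opposite sides of 0.

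DMD before IMQ left the members close to their level after IMQ alone. Between the IMQ+DMD and IMQ arrays, 0 of 32 members differed by 2-fold in either direction, and 0 by 1.5-fold. Over all 19446 genes compared, 0.710% were at least 2-fold higher and 0.926% at least 2-fold lower, and 4.10% and 4.43% were past 1.5-fold. Among the 14863 genes with a mean signal in the range of the members, these shares were 0.283% and 0.249%, so 0 of 32 is near the background. This comparison and that of IMQ with Ctrl share the IMQ array.

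The 18 synthesis enzymes differed between the IMQ+DMD and IMQ arrays from -0.16 for TM7SF2 to 0.10 for LSS, signs that turned under other scalings. Of the enzymes, 17 differed by less than 0.1 log2 units, beside 7471 of 19446 genes and 6618 of the 14863 genes in the signal range of the members. These counts are those of quantile normalization, and the median of the enzymes moved with the scaling. It was -0.16 with 75th percentile scaling, beside -0.09 for all genes. With spike-in scaling it was 0.05, beside 0.11 for all genes. In unnormalized values it was -0.09, beside -0.03 for all genes. The reason for these shifts was not tested. With quantile normalization, the difference was larger than 2 SD of spot noise for 0 of the 18. The 2 largest differences among all members were those of SREBF2 and STARD4, each lower by 0.29 with IMQ+DMD than with IMQ. This is over 4 SD of spot noise for both. Over the 14863 genes in the signal range of the members, the SD of the differences between these arrays was 0.26. SREBF2 and STARD4 were thus lowest on the IMQ+DMD array, below both other arrays. Across the settings, the SREBF2 difference was between -0.47 and -0.26 and that of STARD4 between -0.36 and -0.15.

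FASN was lower with IMQ+DMD than with IMQ by 0.14, a little beyond 2 SD of spot noise, and lower under every setting. ABCA1 was 0.15 higher with 1 probe and 0.35 higher with the other, although the first value became -0.04 with 75th percentile scaling. The efflux list had a median of 0.09 and the synthesis list one of -0.01, beside -0.02 for all genes. With 75th percentile scaling the 2 lists had medians of -0.07 and -0.16, beside -0.09 for all genes. For 28 of the 32 members the difference was within 2 SD of spot noise. Differences of this size between single arrays carry no replicate check.

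**Figure D4:**
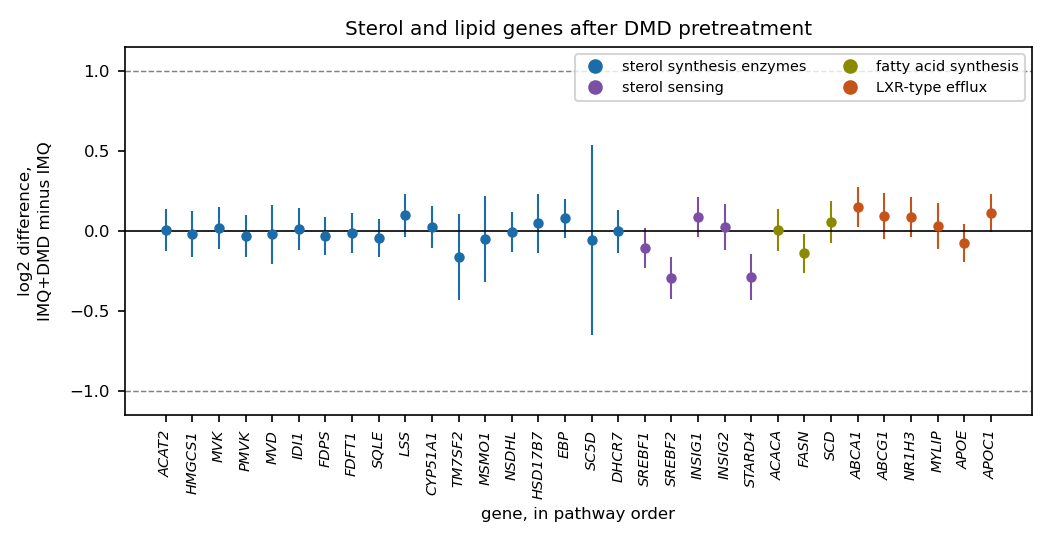
The vertical axis gives the log2 difference between the IMQ+DMD and IMQ arrays for each member in pathway order, with bars of 2 SD of spot noise and dashed lines at 2-fold. All 32 points lie between -0.29 and 0.15, and SREBF2 and STARD4 lie lowest.

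Another 29 genes of the same pathways were listed alongside the members. Of these, 13 belong to SREBP-controlled metabolism, and 3 of the 13 were at least 2-fold lower after IMQ while 0 were 2-fold higher, beside 4.57% and 4.32% of all genes. Their median was -0.24 beside -0.02 for all genes. The 3 lower genes were TMEM97, FADS2, and FADS1.

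TMEM97, a sterol-regulated membrane protein, was at 11.26 on Ctrl, 9.15 on IMQ, and 9.09 on IMQ+DMD. The fatty acid desaturases FADS2 and FADS1 differed by -2.14 and -1.44 log2 units after IMQ, and FADS1 was 0.28 higher with IMQ+DMD than with IMQ. MBTPS2, a protease that cuts SREBPs, differed by -0.17 between IMQ+DMD and IMQ, a value that reached 0 with spike-in scaling. NPC1, which exports cholesterol from lysosomes, went the other way and was 1.88-fold higher after IMQ.

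Of 16 other genes of LXR signaling and lipid handling, 0 were at least 2-fold higher and 2 were at least 2-fold lower after IMQ, with a median of -0.15, beside 4.32% and 4.57% of all genes. LPL, the lipoprotein lipase, was 2.06-fold lower after IMQ, a call lost with 75th percentile scaling at -0.82, and the other lower gene was CH25H. CYP27A1, the sterol 27-hydroxylase, was 1.79-fold higher, and NR1H2, which encodes LXRβ, was 0.54 log2 units higher, a value that became -0.04 with spike-in scaling. CYP27A1 thus differed in the direction of ABCA1, whereas LPL did not.

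CH25H, the cholesterol 25-hydroxylase whose product holds SREBPs back, was at 8.29 on Ctrl, 6.72 on IMQ, and 5.53 on IMQ+DMD. It was the single listed gene with a 2-fold difference between IMQ+DMD and IMQ, 2.28-fold lower from a dim probe with a spot noise of 0.27, and this fell short of 2-fold with 75th percentile scaling at -0.96, without normalization at -0.90, with spike-in scaling at -0.75, and with normexp background correction at -0.63. CYP27A1 was 0.59 log2 units higher with IMQ+DMD than with IMQ, and PPARG, a lipid-sensing nuclear receptor, was 0.25 log2 units higher. SOAT1, which esterifies cholesterol for storage, was 0.19 lower. The levels of CYP27A1 were 12.18 on Ctrl, 13.03 on IMQ, and 13.62 on IMQ+DMD, with the highest value on the IMQ+DMD array.

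The synthesis median lay below the efflux median under each scaling, whereas the size of the gap and the sign of small differences varied with it. Without normalization the median of all genes was -0.49 between IMQ and Ctrl, and with spike-in scaling it was -0.61. The medians of the synthesis enzymes were then -1.47 and -1.59, and those of the efflux genes -0.27 and -0.39, so the enzymes lay 1.20 below the efflux genes with either. Over all genes, 843 were at least 2-fold higher and 891 lower with quantile normalization, beside 350 and 4097 with spike-in scaling.

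**Figure D5:**
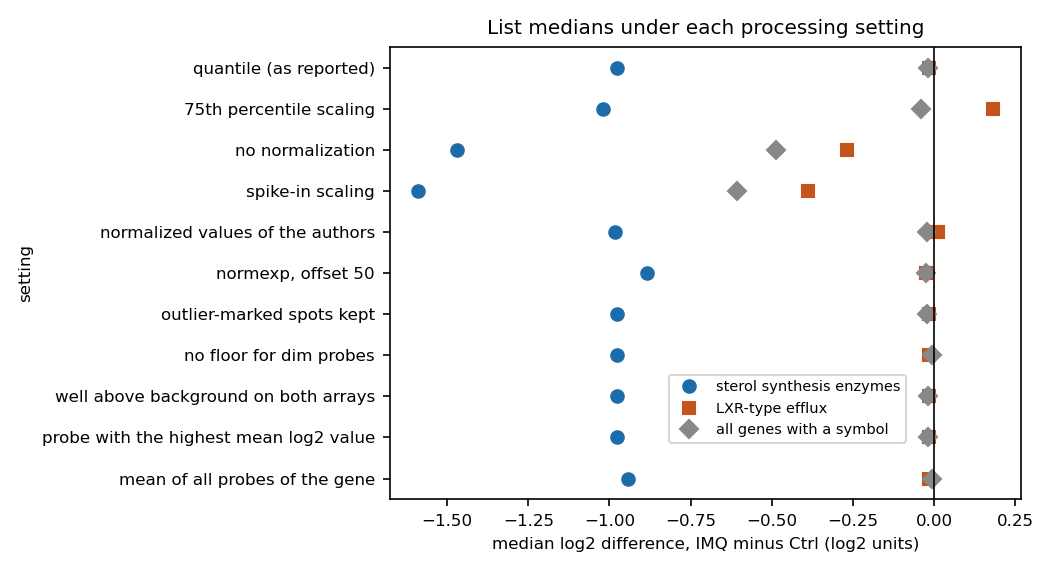
The horizontal axis gives the median log2 difference between IMQ and Ctrl of the synthesis enzymes, the efflux genes, and all genes, and each line of the vertical axis is a processing setting. The synthesis median lies between -1.59 and -0.89 over the settings and left of both other medians in each, while the efflux median lies between -0.39 and 0.18.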

How the data were processed

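RNA of 3 THP-1 cultures was labeled with Cy3 and hybridized to 1 one-color array per condition on a single slide. The deposited scanner output gives the background-corrected fluorescence intensity of every spot, and the authors also deposited a table of raw and quantile-normalized intensity. From the processed intensity, controls and outlier-marked spots (52, 73, and 82 on the Ctrl, IMQ, and IMQ+DMD arrays) were left out here, quantile normalization was done on the linear scale (limma 3.58.1, R 4.3.3), and log2 values were averaged per probe. Later steps used Python 3.11.15, numpy 2.4.6, pandas 2.3.3, and matplotlib 3.10.9. Probes that the scanner software did not rate well above background received at least the lowest value of those it did, and a probe was compared where the brighter array was well above background. Of the probes, 33593 carried a symbol listed in RefSeq. Spot noise came from 300 probes with 10 spots each.

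Each condition had 1 array, which limits the precision, so no test was run and a difference counted from 2-fold on. The steps were tested on simulated data. Named genes were all members, the other pathway genes with the 3 largest rises and falls in each comparison or a 2-fold difference, and the 4 IMQ response genes. The members, lists, and settings were chosen with earlier results of these data known. Probe coordinates are those of the scanner output on hg19, and exons and untranslated parts were not annotated here. Enrichment tests named in the series description were not used here. Some genes of these pathways are not reported here.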

Additional observations from a re-analysis of the deposited data

How the results depend on the processing

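The alternatives were 75th percentile scaling, no normalization, spike-in scaling, the normalized values of the authors, normexp with an offset of 50, outlier-marked spots kept, no floor, both arrays above background, another probe choice, the mean of all probes, and a 1.5-fold threshold. For IMQ against Ctrl, members at least 2-fold higher numbered 1 as reported, 2 with 75th percentile scaling, 0 with spike-in scaling, and 2 at 1.5-fold. Over all genes these counts were 843 of 19511, 807 of 19592, 350 of 19606, and 2075 of 19511. Members at least 2-fold lower numbered 9 as reported, 14 without normalization, 18 with spike-in scaling, and 14 at 1.5-fold. Over all genes the lower ones numbered 891 of 19511, 3083 of 19615, 4097 of 19606, and 2337 of 19511. The synthesis median of -0.98 became -1.47 without normalization, -1.59 with spike-in scaling, and -0.89 with normexp. The efflux median of -0.02 became 0.18, -0.27, and -0.39 with 75th percentile scaling, no normalization, and spike-in scaling. The difference of both medians, -0.96 as reported, was -1.20 with each of these 3, -0.86 with normexp, and -0.82 with sensing and fatty acid genes counted as synthesis. That regrouping and the omission of ABCA1 were chosen after seeing the data. For IMQ+DMD against IMQ, the synthesis median of -0.01 became -0.16 with 75th percentile scaling and -0.093 without normalization. The efflux median of 0.09 became -0.069 and -0.0056, and the medians of all genes were then -0.092 and -0.029. With spike-in scaling the synthesis and efflux medians were 0.05 and 0.14 beside 0.11 for all genes. The cause of these shifts was not tested. Of 320 values of single members, 309 kept their direction in the comparison of IMQ with Ctrl, and 269 in that of IMQ+DMD with IMQ. These counts include the settings that could not change a member, namely no floor, both arrays above background, and another probe choice. No paired analysis was possible because each condition had 1 array, and for the same reason no array could be left out. All arrays lay on 1 slide, so a slide block could not be fitted. Signal over background limits dim probes such as those of SC5D and CH25H, since spot noise is 0.21 between log2 values of 5 and 6 and 0.04 above 14. The arrays also differed in signal, with 75th percentiles of the probes at 472 on Ctrl, 346 on IMQ, and 361 on IMQ+DMD.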
